A study of Homo sapiens with 6 samples.

Results

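The genes described here govern the entry of pyruvate into mitochondrial oxidation. They are the 4 pyruvate dehydrogenase kinases (PDK1, PDK2, PDK3 and PDK4), 4 subunits of the pyruvate dehydrogenase complex (PDHA1, PDHB, DLAT and PDHX) and its 2 phosphatases (PDP1 and PDP2). The 10 genes were chosen by symbol, with earlier results of these data known. All 10 were found among the 58302 Ensembl genes of the deposited count data. RNA was sequenced from cells labelled MDA-MB231 (MDA-MB-231), an established human breast cancer cell line classed by the study as mesenchymal/basal-like. The marker check below bears on this label. Of the 6 libraries, 3 came from cells expressing a control shRNA and 3 from cells expressing Smyca shRNA #1, which targets the lncRNA Smyca. The study calls the 3 repeats of each group biological repeats. Both groups carry an shRNA and no other treatment is given in the labels. Because only 1 Smyca shRNA was sequenced, an effect of lowering Smyca and an effect of this shRNA on other transcripts cannot be told apart.

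Pyruvate dehydrogenase turns pyruvate into acetyl-CoA inside the mitochondrion and so joins glycolysis to the citrate cycle. The PDKs phosphorylate its E1 component and switch the complex off, and the PDPs remove the phosphate and switch it on again. PDK1 and PDK3 are known targets of hypoxia-inducible factors, whereas PDK4 is known as a target of PPARs, FOXO factors and glucocorticoids in fasting. In tumor cells, high PDK activity is a textbook part of aerobic glycolysis, in which pyruvate goes to lactate. The measurements here are transcript levels, and neither phosphorylation nor enzyme activity was measured in them.

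Promoter windows are shown for the 3 members with an unadjusted p under 0.05 and for PDK3, the other kinase known as a hypoxia target. Each window is RefSeq sequence of GRCh38, written on the strand of its gene, and runs from 250 bases before an annotated transcript start to 50 bases after it. PDK1 spans 172555373 to 172608669 on the plus strand of chromosome 2 and has 2 such windows, of which the GC-rich one is shown. DLAT spans 112025408 to 112064404 on the plus strand of chromosome 11, PDHB spans 58427630 to 58433857 on the minus strand of chromosome 3, and PDK3 spans 24465244 to 24550466 on the plus strand of chromosome X. Capitals mark ACGTG, the core letters to which hypoxia-inducible factors bind and part of the E-box CACGTG of MYC, or GCGTG, searched on both strands (CACGT and CACGC on the other strand).
PDK1, chr2:172555840-172556139, plus strand: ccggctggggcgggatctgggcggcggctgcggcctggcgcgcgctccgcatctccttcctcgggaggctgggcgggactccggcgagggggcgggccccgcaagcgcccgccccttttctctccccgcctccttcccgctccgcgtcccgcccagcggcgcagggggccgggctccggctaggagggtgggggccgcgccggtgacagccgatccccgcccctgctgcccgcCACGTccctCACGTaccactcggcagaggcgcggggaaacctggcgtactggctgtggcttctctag
DLAT, chr11:112025158-112025457, plus strand: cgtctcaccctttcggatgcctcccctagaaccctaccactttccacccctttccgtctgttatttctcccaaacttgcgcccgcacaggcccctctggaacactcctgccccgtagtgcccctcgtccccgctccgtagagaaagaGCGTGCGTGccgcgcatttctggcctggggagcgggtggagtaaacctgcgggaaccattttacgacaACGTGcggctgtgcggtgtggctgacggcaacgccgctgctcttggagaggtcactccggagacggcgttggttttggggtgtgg
PDHB, chr3:58433783-58434082, minus strand: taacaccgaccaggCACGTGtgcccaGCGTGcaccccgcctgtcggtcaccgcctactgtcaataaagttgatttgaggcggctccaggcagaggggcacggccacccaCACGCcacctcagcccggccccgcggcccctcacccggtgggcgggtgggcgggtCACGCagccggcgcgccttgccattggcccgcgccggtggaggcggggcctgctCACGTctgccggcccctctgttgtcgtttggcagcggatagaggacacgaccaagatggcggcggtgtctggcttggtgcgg
PDK3, chrX:24465036-24465335, plus strand: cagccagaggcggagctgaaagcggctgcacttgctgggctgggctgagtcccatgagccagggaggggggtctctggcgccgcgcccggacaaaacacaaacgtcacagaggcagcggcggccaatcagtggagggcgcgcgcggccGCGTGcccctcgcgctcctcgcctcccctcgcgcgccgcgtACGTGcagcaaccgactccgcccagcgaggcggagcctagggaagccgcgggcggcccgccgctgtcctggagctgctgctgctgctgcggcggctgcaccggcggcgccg

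RefSeq windows matched 9 of the 10 genes, with 13 windows in all. Either ACGTG or GCGTG stood in 8 of these 13 windows, and in 48.4% of all 35116 promoter windows of the same length. ACGTG alone stood in 7 of the 13 windows against 21.4% of all windows. The E-box CACGTG, which overlaps ACGTG, stood in 3 of the 13 windows against 7.26% of all windows. It was present 1 time in the PDHB window and absent from the PDK1, DLAT and PDK3 windows. CAGAC, the letters known for SMAD binding, stood in 6 of the 13 windows against 45.3% of all. The shown PDK1 window held ACGTG 2 times, whereas the other PDK1 window, at the start of the longest GENCODE span, held none of these motifs and had a GC content of 36.3% against 77.0%. Some genes have several windows, those of PDHX overlap each other, and the background was not matched for GC content. The counts therefore do not measure an excess of motifs. These matches describe letters only, and no binding was measured here.

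Total counts lay between 14999307 and 16501085 per library, and the repeats of a group varied by a biological coefficient of variation of 25.2% beyond counting noise. MIR23AHG, the gene of Smyca, was at 25.0, 19.5 and 22.0 normalized CPM in the control and 10.5, 6.97 and 5.61 in the knockdown, with no overlap (log2 fold change 1.53, adjusted p = 0.111 in edgeR's quasi-likelihood test). Levels are given as normalized CPM, in which the library size carries its TMM factor, and every log2 fold change is that of control over Smyca knockdown. Control repeat 3 stands apart from the other control libraries for several genes below, so results are also given without it. In control repeat 2, the deposited FPKM column does not follow its count column, and the reads recovered from it correlated more with the counts of control repeat 3 (r = 0.995 across genes) than with those of control repeat 2 itself (r = 0.957). Their correlation with each of the 3 knockdown libraries (r = 0.964 to 0.966) was also above the latter. Member values are therefore also given with these FPKM-derived reads in place of its counts, and list values where they moved. MIR23AHG had a log2 fold change of 1.55 with these reads (adjusted p = 0.0749, edgeR) and of 1.52 without control repeat 3 (adjusted p = 0.0152, edgeR).
The cell line label was checked against markers. Of the 12 mesenchymal and basal markers, 11 had enough counts to be tested, at levels that ran from LOX at 1.46 to 5.02 normalized CPM, ZEB1 at 6.22 to 12.9 and CD44 at 9.31 to 37.2 to VIM at 71.2 to 305 and MSN at 341 to 767. SPARC, the 1 not tested, had at most 0.677 in any library. Of the epithelial markers, KRT8 had 4249 to 7408, KRT18 987 to 1379, EPCAM 236 to 336 and CDH1 71.5 to 300.1. Of genes from other tissues, VIL1, a brush-border gene, had 220 to 501, and HNF4A, a factor of gut and liver, had 65.4 to 194. The control libraries had 168, 187 and 65.4 normalized CPM of HNF4A, and the knockdown libraries 186, 194 and 193, so control repeat 3 was the lowest of all. Of the 8 intestinal markers, 5 had enough counts to be tested, with a summed level of 294 to 543 normalized CPM in the control and 628 to 708 in the knockdown. Most of that sum was VIL1 and HNF4A, whereas CDX2 had 6.08 to 11.1, CDH17 0.704 to 4.25 and LGALS4 0.330 to 1.34. CDX1, KRT20 and GPA33 did not have enough counts. Of the 8 hepatic markers, SERPINA1 alone did, and of the 8 epithelial and luminal markers ESR1 and FOXA1 did not. The epithelial genes, HNF4A and VIL1 thus stood against a mesenchymal label, and these data did not settle the identity of the line. The 12 mesenchymal and basal markers summed to 790 to 1588 normalized CPM in the control and 804 to 1175 in the knockdown. The part of these markers in the results was not tested.

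In edgeR's quasi-likelihood test of all 6 libraries, none of the 10 genes met the study's criteria for a DEG, which are a control to knockdown ratio of 1.5 or more, or of 0.66 or less, with an adjusted p under 0.05. In that test 4 of 15075 genes (0.0265%) were DEGs. The count depends on the tool, since the DESeq2 Wald test called 2 of the 10, PDK1 and DLAT, and 5.55% of all genes by the same criteria. An unadjusted p under 0.05 was reached by 3 of the 10, PDK1, DLAT and PDHB, beside 19.2% of all genes tested. Control and knockdown libraries did not overlap in 4 of the 10, with PDK1 higher in the control and DLAT, PDHB and PDHX lower, beside 24.8% of all genes. The ratio criterion alone was met by 2 of the 10, PDK1 and DLAT, beside 21.2%. Fold changes were below 0, that is lower in the control, for 6 of the 10 and for 46.6% of all genes. The median log2 fold change was -0.16 over the 10 genes and 0.04 over all genes tested. The edgeR counts at an unadjusted p and without overlap therefore lie near the background, whereas the DESeq2 count is above it and rests on PDK1 and DLAT.

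**Figure D1:**
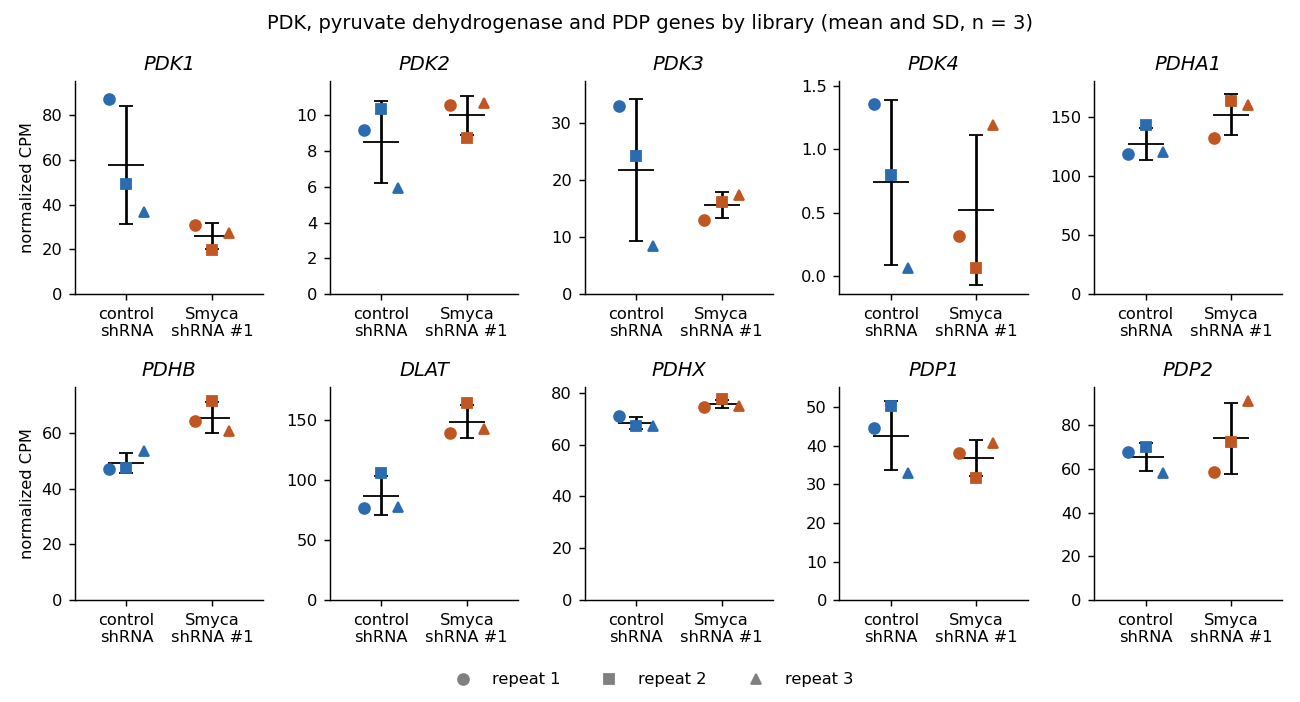
Level of each gene, in normalized CPM, in the 3 control shRNA libraries (blue) and the 3 Smyca shRNA #1 libraries (orange); points are libraries, marked by repeat number, and black lines are the mean ± SD. PDK1 lies above 36 in each control library and below 31 in each knockdown library, DLAT below 106 and above 138, and control repeat 3 is the lowest of all 6 libraries for PDK2 and PDK3.

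PDK1, the kinase best known from hypoxic tumor cells, had 87.3, 49.2 and 36.5 normalized CPM in the control libraries and 30.9, 19.8 and 27.3 in the Smyca knockdown libraries. In bulk RNA, fewer cells expressing a gene and less RNA per cell cannot be told apart. Each control library was above each knockdown library, but control repeat 1 was more than 2 times as high as control repeat 3, and the latter was close to the highest knockdown library. The mean was 57.6 ± 26.4 (SD, n = 3) in the control and 26.0 ± 5.63 (SD, n = 3) in the knockdown. The log2 fold change was 1.15 (SE 0.32), and the adjusted p of edgeR's quasi-likelihood test was 0.132. Without control repeat 3, it was 1.38, and PDK1 was called (adjusted p = 0.0172, edgeR), as were 10.5% of all genes tested in that fit. Without control repeat 1, the log2 fold change was 0.73 (adjusted p = 0.380, edgeR). With the FPKM-derived reads of control repeat 2 it was 0.99 (adjusted p = 0.199, edgeR), again without overlap. DESeq2 called PDK1 (adjusted p = 0.0160).

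PDK1-AS1, a lncRNA on the opposite strand of the PDK1 locus, had 32, 33 and 38 counts in the control libraries and 24, 20 and 12 in the knockdown libraries, a small number beside the 313 to 1414 counts of PDK1. The groups did not overlap for PDK1-AS1 either, with a log2 fold change of 0.84 (adjusted p = 0.258, edgeR). The libraries were strand-specific, but the strand setting of the counting is not stated, so part of the reads of the 2 genes may be shared. PDK1-AS1 was lowest in knockdown repeat 3, whereas PDK1 was lowest in knockdown repeat 2, so the 2 did not follow the same order of libraries.

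PDK3, the kinase with the highest known activity and the least inhibition by pyruvate, had 33.0, 24.2 and 8.39 normalized CPM in the control and 13.0, 16.2 and 17.4 in the knockdown. Control repeats 1 and 2 were above all knockdown libraries, whereas control repeat 3 was below all of them. The mean was 21.8 ± 12.4 (SD, n = 3) against 15.6 ± 2.28 (SD, n = 3), and the log2 fold change of 0.49 (SE 0.42) had an adjusted p of 0.548 in edgeR's test. Without control repeat 3, the log2 fold change was 0.87 and PDK3 was called (adjusted p = 0.0341, edgeR). Without control repeat 1 it was 0.07, and with the FPKM-derived reads of control repeat 2 it was 0.04. The position of PDK3 thus rests on single control libraries.

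PDK2, the most widely expressed kinase in normal tissues, had 9.19, 10.3 and 5.96 normalized CPM in the control and 10.5, 8.74 and 10.7 in the knockdown. The groups overlapped, and control repeat 3 was again the lowest. The log2 fold change was -0.23 (SE 0.26, adjusted p = 0.655, edgeR). It was -0.04 without control repeat 3 and -0.54 with the FPKM-derived reads of control repeat 2. PDK4, the starvation-responsive kinase, was hardly expressed in these cells. It had 22, 13 and 1 counts in the control libraries and 5, 1 and 18 in the knockdown libraries, and no direction could be seen at this depth (log2 fold change 0.51, SE 0.99, adjusted p = 0.804, edgeR). PDK4 was the 1 member with fewer than 10 counts in some library.

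Compared per kb of gene length, using the length behind the authors' FPKM values, PDK1, PDK3 and PDK2 were the kinases that made up nearly all PDK transcripts. In the control, PDK1 stood at 22.9 ± 10.5 normalized CPM per kb, PDK3 at 15.9 ± 9.05 and PDK2 at 8.12 ± 2.17 (SD, n = 3). In the knockdown, the levels were 10.3 ± 2.23 for PDK1, 11.3 ± 1.66 for PDK3 and 9.55 ± 1.04 for PDK2, and the library values of the 3 kinases overlapped. PDK4 was below all of them, at 0.50 ± 0.44 and 0.35 ± 0.40.

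The makeup of the PDK transcripts differed between the groups more evenly than their amount. PDK1 took 50.7%, 41.0% and 55.0% of the summed PDK level per kb in the control libraries and 38.2%, 28.0% and 31.3% in the knockdown libraries. Each control library was above each knockdown library, and control repeat 3, which had the lowest PDK1 level among the controls, had the highest PDK1 share. PDK2 took 12.9%, 20.8% and 21.6% in the control and 31.5%, 29.8% and 29.6% in the knockdown, again without overlap. PDK3 had overlapping shares, of 23.2% to 37.0% in the control and 29.6% to 42.0% in the knockdown. With the FPKM-derived reads of control repeat 2, that library had 54.4% PDK1 and 22.5% PDK2, and the groups stayed apart for both shares. The shares of the 4 genes add up to the whole, so a lower share of PDK1 and a higher share of PDK2 are not separate measurements, and no test was made of them.

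The summed level of the 4 kinases was 68.3, 47.5 and 26.3 normalized CPM per kb in the control libraries and 32.0, 28.1 and 34.5 in the knockdown libraries. Control repeat 3 had the lowest sum of the 6, and the groups overlapped. With its FPKM-derived reads, control repeat 2 had a sum of 23.8, below all knockdown libraries, so that control repeat 1 alone stood above them. Relative to PDHA1, which encodes the subunit that the PDKs phosphorylate, the sum was 0.848, 0.490 and 0.324 in the control and 0.357, 0.253 and 0.319 in the knockdown. Control repeats 1 and 2 had more kinase transcript per PDHA1 transcript than any knockdown library, and control repeat 3 lay among the knockdown libraries. With its FPKM-derived reads, control repeat 2 had a ratio of 0.295 and also lay among them. The difference between the group means, 0.244, was 0.0972 without control repeat 1.

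**Figure D2:**
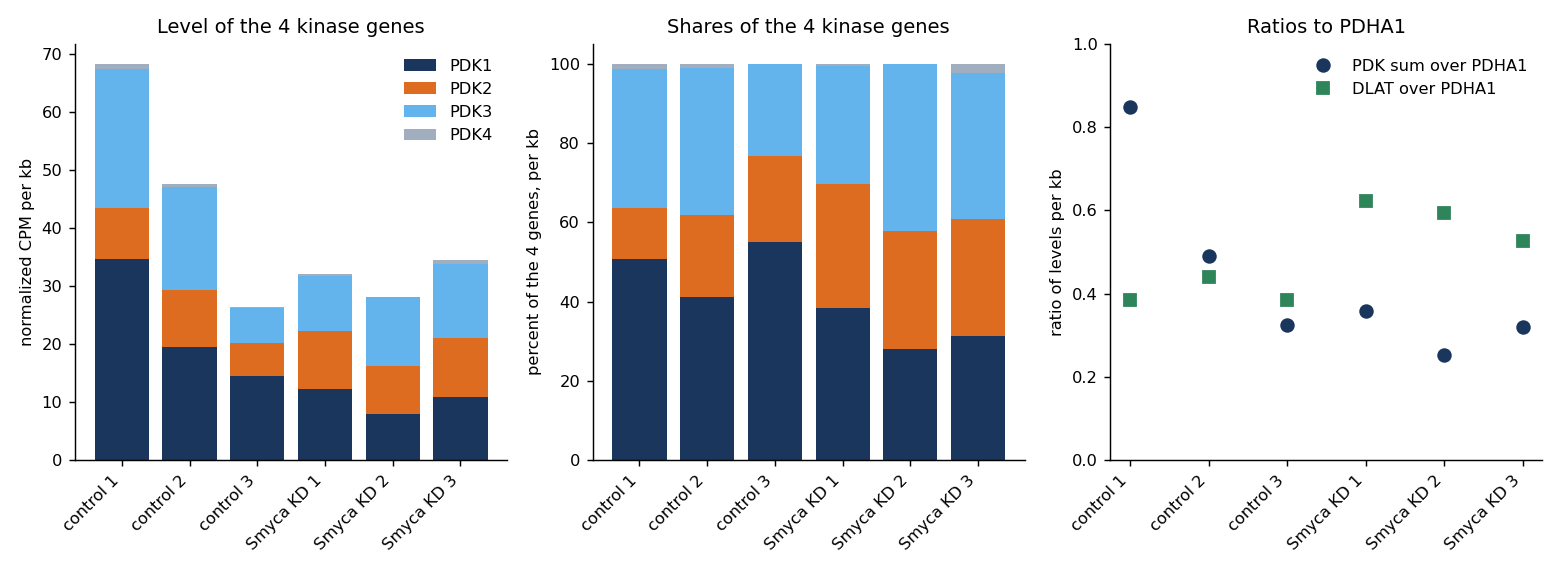
Left, summed level of the 4 kinase genes per library in normalized CPM per kb; middle, the share of each gene in that sum in percent; right, the kinase sum (circles) and DLAT (squares) divided by PDHA1, all per kb. All values are from the count columns. The total overlaps between the groups with control repeat 3 low, and would be low in control repeat 2 as well with its FPKM-derived reads (23.8), whereas the PDK1 share is at least 41.0% in each control library and at most 38.2% in each knockdown library, and DLAT over PDHA1 is at most 0.439 in the control and at least 0.527 in the knockdown.

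DLAT encodes E2, the lipoyl-bearing acetyltransferase that forms the core of the complex and to which the PDKs bind. It had 77.1, 105.8 and 77.9 normalized CPM in the control libraries and 139, 164 and 142 in the knockdown libraries. All 3 control libraries were below all 3 knockdown libraries, and control repeat 3 was close to control repeat 1. The mean was 86.9 ± 16.3 (SD, n = 3) in the control and 148 ± 13.7 (SD, n = 3) in the knockdown, a log2 fold change of -0.77 (SE 0.17). With an adjusted p of 0.113 in edgeR's quasi-likelihood test it was the lowest among the 10 genes, but DLAT was not called. It was called by DESeq2 (adjusted p = 0.00568), without control repeat 3 (log2 fold change -0.70, adjusted p = 0.0448, edgeR), and with no filter beyond 1 count (adjusted p = 0.0103, edgeR), a setting that called 3.01% of all genes. With the FPKM-derived reads of control repeat 2, the log2 fold change was -0.93 (adjusted p = 0.0710, edgeR). Over the main fit and its 13 alternatives, the log2 fold change of DLAT lay between -0.94 and -0.69, a narrower range than that of PDK1, 0.73 to 1.38. The nearest tested genes on each side, DIXDC1 and NKAPD1, had log2 fold changes of -0.05 and -0.03. The opposite-strand gene PIH1D2 had 18 to 30 counts in any library.

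PDHB encodes the beta chain of E1. It had 46.8, 47.5 and 53.4 normalized CPM in the control and 64.0, 71.3 and 60.7 in the knockdown, and the groups did not overlap. The log2 fold change was -0.41 (SE 0.14), with an unadjusted p of 0.0180 and an adjusted p of 0.176 in edgeR's test. The unadjusted p of the same test rose above 0.05 with the FPKM-derived reads of control repeat 2 (0.0751) and without control repeat 1 (0.0620), control repeat 2 (0.0674) or knockdown repeat 2 (0.0717), with the groups still apart. PDHX, the E3-binding protein that anchors E3 in the complex, had 71.1, 67.0 and 67.0 in the control and 74.6, 77.6 and 74.7 in the knockdown. These 6 values lay close together, and although the groups did not overlap the log2 fold change was only -0.15 (SE 0.13, adjusted p = 0.558, edgeR). PDHX shares its locus with APIP on the opposite strand, which had 535 to 711 counts per library.

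PDHA1 encodes the alpha chain of E1, with the serines that the PDKs phosphorylate. It had 119, 143 and 120 normalized CPM in the control and 132, 164 and 160 in the knockdown, with control repeat 2 above knockdown repeat 1. The log2 fold change was -0.25 (SE 0.15, adjusted p = 0.398, edgeR). With the FPKM-derived reads of control repeat 2 it was -0.36, the groups no longer overlapped, and edgeR's unadjusted p was 0.0286 (adjusted p = 0.193). All 4 subunit genes thus had lower means in the control, in sizes that ran from -0.15 for PDHX to -0.77 for DLAT.

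Within the complex, the groups did not overlap for DLAT relative to PDHA1 or PDHX, whereas they overlapped for DLAT relative to PDHB. DLAT over PDHA1 per kb was 0.385, 0.439 and 0.385 in the control libraries and 0.624, 0.595 and 0.527 in the knockdown libraries. DLAT over PDHX was 0.480, 0.699 and 0.515 in the control and 0.825, 0.936 and 0.843 in the knockdown. DLAT over PDHB was 1.02, 1.38 and 0.903 in the control and 1.34, 1.42 and 1.45 in the knockdown, with control repeat 2 above knockdown repeat 1, although that library stood at 0.832 with its FPKM-derived reads. PDHB over PDHA1 also overlapped, at 0.319 to 0.427 in the control and 0.365 to 0.464 in the knockdown. These ratios were chosen after the values were seen and are given as a description without a test.

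The phosphatases were not called and differed by less than the larger SD of the groups. PDP1, the calcium-activated form, had 44.6, 50.4 and 32.9 normalized CPM in the control and 38.1, 31.5 and 40.7 in the knockdown (log2 fold change 0.21, SE 0.19, adjusted p = 0.573, edgeR). PDP2, the insulin-responsive form, had 67.8, 70.0 and 58.1 in the control and 58.5, 72.2 and 90.9 in the knockdown (log2 fold change -0.18, SE 0.19, adjusted p = 0.626, edgeR). Both sets of values overlapped. Single libraries moved both values. PDP1 ranged from 0.07 to 0.36 over the fits that left out 1 library, with the highest value without control repeat 3, where the groups no longer overlapped, and was at -0.0067 with the FPKM-derived reads of control repeat 2. PDP2 was at -0.01 without knockdown repeat 3 and -0.33 without knockdown repeat 1. PDP1 over PDP2 per kb was 0.535, 0.585 and 0.460 in the control and 0.530, 0.355 and 0.364 in the knockdown, with knockdown repeat 1 inside the range of the control.

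**Figure D3:**
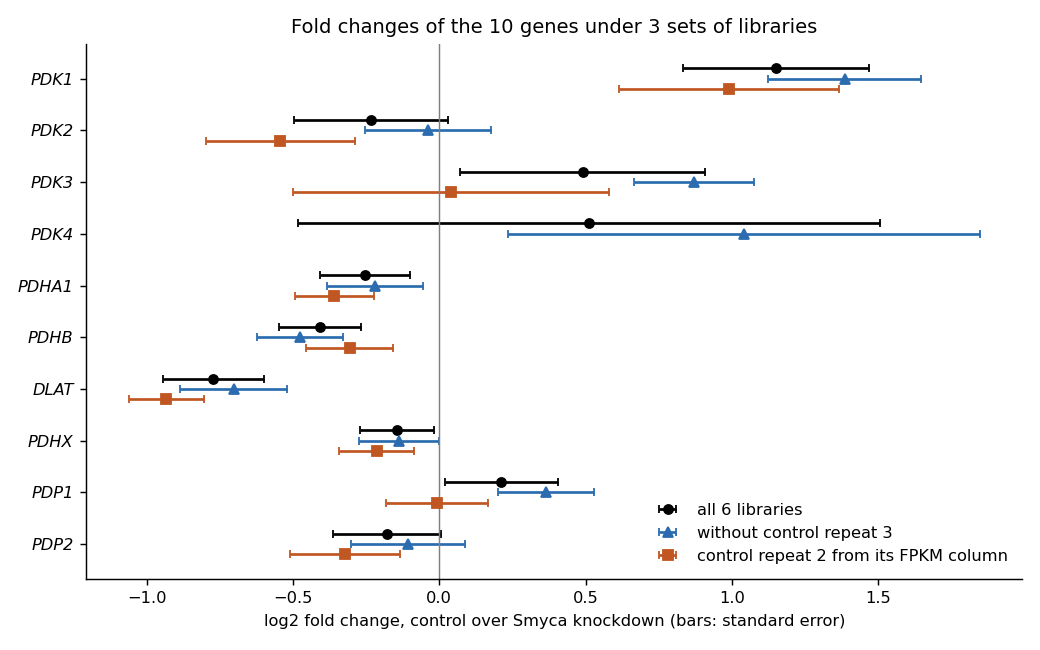
Log2 fold change of control over Smyca knockdown for each gene, with its standard error, from all 6 libraries (black), without control repeat 3 (blue) and with the FPKM-derived reads of control repeat 2 (orange; PDK4 had too few counts to be tested there). DLAT stays between -0.93 and -0.70 and PDK1 between 0.99 and 1.38, whereas PDK3 moves from 0.04 to 0.87.

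Around the complex, 10 genes of pyruvate entry and lactate handling were counted, a list that holds the other partners of the complex, the mitochondrial pyruvate carrier, lactate dehydrogenase, pyruvate carboxylase and the lactate transporters. None was a DEG, and 3 of 10 had an unadjusted p under 0.05, beside 19.2% of all genes, all lower in the control, namely PDPR, DLD and SLC16A1. The median log2 fold change of the list was -0.20, beside 0.04 over all genes. DLD encodes E3, the subunit shared with the other 2-oxoacid dehydrogenases, and had 74.8, 85.0 and 71.1 normalized CPM in the control and 94.0, 104 and 92.3 in the knockdown (log2 fold change -0.33, SE 0.14, adjusted p = 0.245, edgeR). PDPR, the regulatory subunit of the phosphatase, had 52.6, 52.1 and 80.8 in the control and 93.8, 82.7 and 89.1 in the knockdown, so that control repeat 3 nearly reached the knockdown libraries (log2 fold change -0.52, adjusted p = 0.205, edgeR). SLC16A1, the lactate and pyruvate transporter MCT1, had 123, 126 and 155 in the control and 210, 201 and 184 in the knockdown (log2 fold change -0.56, adjusted p = 0.129, edgeR). These 3 of the 10 were without overlap between the groups, beside 24.8% of all genes, so that neither count stands far from the background. The first count was 2 of 10 with the FPKM-derived reads of control repeat 2, beside 20.4% of all genes, and PDPR was no longer among them (unadjusted p = 0.111 in edgeR). Without control repeat 3, 2 of 10, PDPR and SLC16A1, were called (adjusted p = 0.0172 and 0.0238, edgeR), beside 10.5% of all genes.

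MPC1 and MPC2, which form the mitochondrial pyruvate carrier, had log2 fold changes of -0.26 and -0.21 with overlapping groups (adjusted p = 0.554 and 0.593, edgeR). LDHA, which turns pyruvate into lactate, had 2244, 1925 and 1091 normalized CPM in the control and 1211, 1479 and 1656 in the knockdown. As for PDK3, control repeats 1 and 2 were above all knockdown libraries and control repeat 3 below them (log2 fold change 0.28, adjusted p = 0.588, edgeR). The log2 fold change was 0.52 without control repeat 3 and -0.0030 with the FPKM-derived reads of control repeat 2. LDHB had a log2 fold change of -0.18 with overlapping groups (adjusted p = 0.578, edgeR).

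In the citrate cycle, 3 of 14 genes had an unadjusted p under 0.05, about the 19.2% of all genes. The 3 were lower in the control, and the median log2 fold change of the 14 was -0.17. The largest fold change was that of IDH3A, the catalytic subunit of isocitrate dehydrogenase, at 27.3, 33.4 and 26.6 normalized CPM in the control and 39.4, 43.3 and 45.9 in the knockdown (log2 fold change -0.56, adjusted p = 0.133, edgeR). The other two were SDHA and SUCLA2. Such a p was reached by 5 of 14 with the FPKM-derived reads of control repeat 2, beside 20.4% of all genes. MDH2, the gene of the list with the highest level, had a log2 fold change of -0.07 (adjusted p = 0.798, edgeR). None of the 14 was a DEG in the fit of all 6 libraries, where FH had a log2 fold change of -0.40. Without control repeat 3, 1 of 14 was called, beside 10.5% of all genes, namely FH (-0.63, adjusted p = 0.0412, edgeR).

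Of the factors known to act on PDK genes, 1 of 11, EPAS1, had an unadjusted p under 0.05, below the share of 19.2% over all genes (log2 fold change 1.55, adjusted p = 0.244, edgeR). EPAS1, which encodes HIF-2alpha, had 10.2, 6.34 and 1.41 normalized CPM in the control and 1.52, 1.39 and 3.24 in the knockdown, with control repeat 3 among the knockdown libraries. Without control repeat 3, 3 of 11 were called, beside 10.5% of all genes. These were EPAS1 (adjusted p = 0.0211, edgeR), PPARA (log2 fold change 1.42, adjusted p = 0.0320, edgeR) and PPARD (0.74, adjusted p = 0.0168, edgeR). With the FPKM-derived reads of control repeat 2, EPAS1 had a log2 fold change of 1.01 (adjusted p = 0.541, edgeR). In that fit 0 of 11 had an unadjusted p under 0.05, beside 20.4% of all genes. HIF1A transcript levels, at 84.9 to 94.4 in the control and 78.8 to 118 in the knockdown, had a log2 fold change of -0.09 (adjusted p = 0.804, edgeR). MYC, at 499 to 746 and 524 to 755, had one of -0.05 (adjusted p = 0.919, edgeR). HIF1A is known to be controlled largely at the protein level, which was not measured in these libraries.

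The 16 HIF target genes of a list without members of the complex all had log2 fold changes above 0, with a median of 1.33, and 12 of 16 had an unadjusted p under 0.05, beside 19.2% of all genes, although none was a DEG. Like the other lists, this list was chosen with earlier results of these data known, so its counts are a description only. Of these 16 genes, 6 were without overlap between the groups, beside 24.8% of all genes. The number of HIF target genes at a given threshold moved with single control libraries. Without control repeat 3, 15 of 16 had an unadjusted p under 0.05, beside 29.6% of all genes, and 13 of 16 were DEGs, beside 10.5%. Such a p was reached by 6 of 16 with the FPKM-derived reads of control repeat 2, beside 20.4%, and 0 of them were DEGs. With those reads all 16 were still above 0, with a median log2 fold change of 1.16. The groups did not overlap for 6 of 16, beside 4242 of 15190 genes. NDRG1, with the largest fold change, had 837, 347 and 36.4 normalized CPM in the control and 17.7, 16.0 and 78.7 in the knockdown (log2 fold change 3.44, SE 1.03, adjusted p = 0.144, edgeR), so that control repeat 3 was below knockdown repeat 3. SLC2A1, the glucose transporter GLUT1 and the highest of the list, had 3023, 1630 and 1102 against 1562, 1610 and 1102 (log2 fold change 0.43, adjusted p = 0.517, edgeR).

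The mean of the list, as log2(CPM + 1) relative to the 6-library mean, was 1.58, 0.83 and -0.43 in the control libraries and -0.73, -0.87 and -0.38 in the knockdown libraries. Control repeat 3 thus lay within the range of the knockdown libraries for this list. The value of control repeat 2 rests on its count column. With its FPKM-derived reads the means were 1.78, -0.23 and -0.22 in the control and -0.51, -0.65 and -0.17 in the knockdown, so that control repeat 1 alone stood above the knockdown libraries. The order of the libraries differed between the members. PDK3 was above the knockdown libraries in control repeats 1 and 2, the libraries with a high HIF target mean by their counts, and below them in control repeat 3. PDK1 in control repeat 3 was still 36.5 normalized CPM, above the 27.3 of knockdown repeat 3, which had a similar HIF target mean. DLAT was as low in control repeat 3 (77.9) as in control repeat 1 (77.1), the libraries with the lowest and the highest HIF target mean among the controls. The part of hypoxia signalling in these values was not tested, and oxygen levels and cell densities are not given in the labels.

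**Figure D4:**
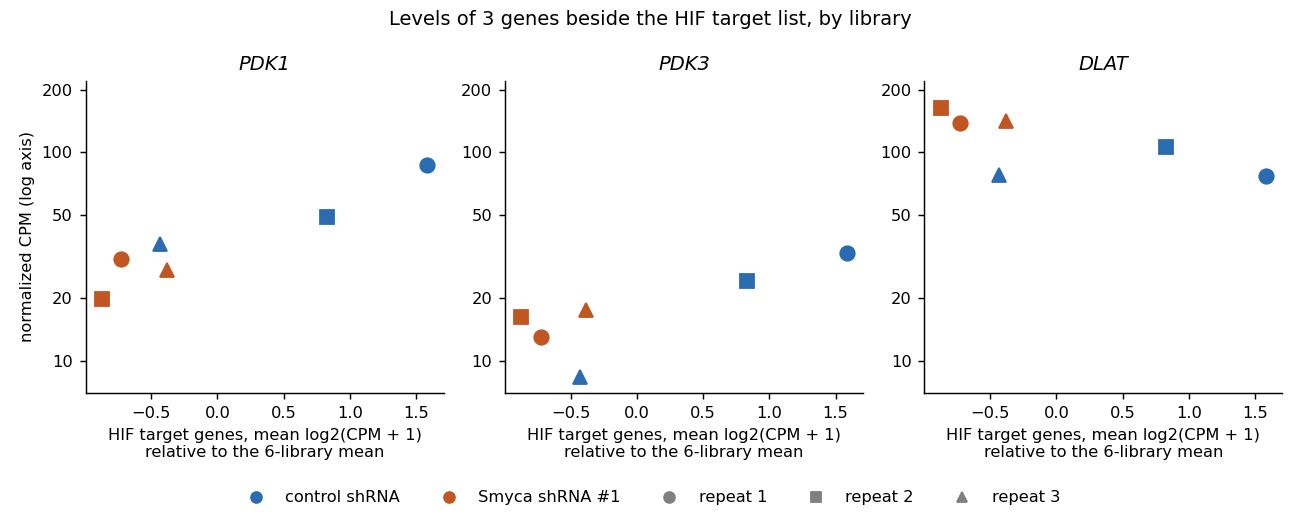
Normalized CPM (log axis) of PDK1, PDK3 and DLAT against the mean of the 16 HIF target genes in each library, as log2(CPM + 1) relative to the 6-library mean; blue, control shRNA, orange, Smyca shRNA #1, markers by repeat. All values are from the count columns. Control repeat 3 (blue triangle) lies at -0.43 on the horizontal axis, among the knockdown libraries, where its PDK1 is the highest of these 4 libraries, its PDK3 the lowest and its DLAT the lowest.

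The PPAR target list had 6 of 8 genes tested, with 3 of 6 at an unadjusted p under 0.05, beside 19.2% of all genes, all higher in the control, and a median log2 fold change of 0.22. ANGPTL4, which like PDK4 is known from fasting, had 5.37, 6.34 and 0.576 normalized CPM in the control and 0.698, 0.253 and 0.792 in the knockdown (log2 fold change 2.80, adjusted p = 0.140, edgeR). With the FPKM-derived reads of control repeat 2 its log2 fold change was 2.10 (adjusted p = 0.203, edgeR). Without control repeat 3, 2 of 6 were called, beside 10.5% of all genes. These were ANGPTL4 (log2 fold change 3.31, adjusted p = 0.0056, edgeR) and PLIN2 (1.03, adjusted p = 0.0228, edgeR). ACADVL, a beta-oxidation enzyme and the highest of the list, had 929, 822 and 727 in the control and 622, 634 and 614 in the knockdown, without overlap (log2 fold change 0.41, adjusted p = 0.190, edgeR). The PDK4 values did not follow ACADVL, since the second highest PDK4 level was that of knockdown repeat 3, at 1.19 normalized CPM.

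Among 9524 genes with a mean of at least 10 normalized CPM, the 5 whose log2 levels were most like those of PDK1 over the 6 libraries were LYST, EDEM1, MRPS10, VPS39 and ERRFI1, with Pearson's r from 0.994 to 0.997. ERRFI1, a feedback inhibitor of the EGF receptor, had 679, 354 and 204 normalized CPM in the control and 190, 90.7 and 156 in the knockdown, in the same order of libraries as PDK1. The gene most like DLAT, a comparison chosen after the values were seen, was ACLY (r = 0.998), which makes cytosolic acetyl-CoA from the citrate that pyruvate dehydrogenase feeds. ACLY had 295, 410 and 291 normalized CPM in the control and 533, 674 and 586 in the knockdown. For PDK4, the 5 were USO1, CD109, MET, POF1B and SLC39A14 (r = 0.987 to 0.995), which rests on the 1 to 22 counts of PDK4. The 6 points of each correlation are the same libraries and fall into the 2 groups, so no p is given.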

How the data were processed

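The authors sequenced RNA, depleted of rRNA and made into strand-specific libraries, from 3 control shRNA and 3 Smyca shRNA #1 repeats of MDA-MB-231 cells. They mapped reads to hg38 with TopHat2 (2.0.12 in the submitters' processing notes) and counted them with HTSeq. The annotation release and strand setting are not given in the sources used here. The deposited files give the raw read count of each gene, and beside it the authors deposited FPKM values. These FPKM values served for gene lengths and to recover whole reads of control repeat 2 (100% whole within 0.02 reads). Mapping could not be changed.

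Symbols came from GENCODE release 44, which matched 57532 of 58302 identifiers, and promoter windows from RefSeq. Raw counts were fitted with edgeR 4.0.16 in R 4.3.3 (TMM, filterByExpr, quasi-likelihood test), and adjustment over 15075 genes was by Benjamini-Hochberg. The code was tested on simulated counts. Groups came from the sample labels. The alternatives were other scalings, filters, thresholds, DESeq2 1.42.0, a replicate block, each library left out, and the reads behind the FPKM column. The last, and leaving out control repeat 3, were applied to the lists after the values were seen.

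The members and gene lists were chosen with earlier results of these data known. Named genes were the members, Smyca, the complex's partners, the gene with the largest fold change and the highest gene of each list, MYC, HIF1A, and the 5 genes most like PDK1 and PDK4. Other named genes were chosen after their values were seen.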

Additional observations from a re-analysis of the deposited data

How the results depend on the processing

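Of the 10 genes, 0 were DEGs in the fit of all 6 libraries (3 had an unadjusted p under 0.05 in edgeR). There were 2 with no filter beyond 1 count, 2 with DESeq2 and 2 by the ratio criterion alone, PDK1 and DLAT each time. Leaving out each library in turn gave 0 to 3, with 3 (PDK1, PDK3 and DLAT) without control repeat 3. Over all genes the number of DEGs was 4, against 8 with total counts, 916 with no filter beyond 1 count, 10 with the reads behind the FPKM column, 836 with DESeq2, 1628 without control repeat 3 and 0 without control repeat 1, without knockdown repeat 1, without knockdown repeat 2 or with the replicate block. Without control repeat 2 or knockdown repeat 3 it was 2. The sign of PDK4 turned when libraries were left out (-0.24 to 1.91), and that of PDP1 with the reads behind the FPKM column (-0.0067). The cause was not tested. With the replicate block, 0 of the 10 were DEGs and 3 had an unadjusted p under 0.05 in edgeR, beside 2568 of 15075 genes. The 3 had log2 fold changes of 1.08 for PDK1, -0.78 for DLAT and -0.41 for PDHB. Same-numbered libraries deviated together by r = 0.0607, 0.0842 and -0.0139 only, so the numbers were not taken to pair them. PDK4, at 1 to 22 counts, is limited by depth.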

Other observations

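The enzymes that share the chemistry of pyruvate dehydrogenase were looked at as a list of 12 genes, made of the lipoylation pathway and the sister dehydrogenases of 2-oxoglutarate and branched-chain amino acids. Of these, 11 could be tested (BCKDHA had too few counts), and the median log2 fold change was -0.0050, with 5 of 11 higher and 6 of 11 lower in the control. The 1 gene of these 11 with an unadjusted p under 0.05, a count below the 19.2% of all genes, was PPM1K, the phosphatase that switches on branched-chain ketoacid dehydrogenase as the PDPs switch on pyruvate dehydrogenase. PPM1K had 18.5, 15.1 and 14.7 normalized CPM in the control and 8.70, 8.68 and 11.7 in the knockdown, without overlap (log2 fold change 0.73, SE 0.22, adjusted p = 0.143, edgeR's quasi-likelihood test). OGDH, the highest of the list, had 172, 176 and 104 in the control and 147, 186 and 213 in the knockdown (log2 fold change -0.28, adjusted p = 0.543, edgeR), with control repeat 3 the lowest. With the FPKM-derived reads of control repeat 2, 3 of 11 had an unadjusted p under 0.05, beside 20.4% of all genes, and the median was -0.11.

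Among the marker lists, 7 of 11 tested mesenchymal and basal genes had an unadjusted p under 0.05, beside 19.2% of all genes, all higher in the control, with a median log2 fold change of 0.71. The mean of the list, as log2(CPM + 1) relative to the 6-library mean, was 0.72, 0.35 and -0.03 in the control and -0.41, -0.48 and -0.15 in the knockdown, so that control repeat 3 stood closer to the knockdown libraries than the other controls did. With the FPKM-derived reads of control repeat 2, that library stood at -0.02 and 5 of 11 had an unadjusted p under 0.05, beside 20.4% of all genes. PLAU, the urokinase gene, had 47.9, 32.5 and 23.1 normalized CPM in the control and 12.6, 11.0 and 8.85 in the knockdown (log2 fold change 1.67, adjusted p = 0.111, edgeR). MSN, the highest of the list, had a log2 fold change of 0.04. In the epithelial and luminal list, 1 of 6 tested genes had an unadjusted p under 0.05, namely KRT8, with 4715, 4775 and 4249 in the control and 5083, 6504 and 7408 in the knockdown, lower in the control without overlap (log2 fold change -0.47, adjusted p = 0.201, edgeR). CDH1, with the largest fold change of that list, had 300.1, 192 and 71.5 against 93.8, 77.6 and 172. Of the 5 intestinal genes tested, 2 had an unadjusted p under 0.05, in opposite directions, and 4 of 5 with the FPKM-derived reads of control repeat 2. VIL1 was lower in the control, at 337, 343 and 220.5 against 457, 501 and 422 (log2 fold change -0.62, adjusted p = 0.155, edgeR), and LGALS4 was higher, on 17 to 21 counts against 5 to 11 (log2 fold change 1.14, adjusted p = 0.200, edgeR). CDH17, with the largest fold change of these 5, had 0.802, 2.22 and 0.704 against 4.25, 3.61 and 0.924. SERPINA1, the 1 hepatic gene tested, had a log2 fold change of -0.32. None of these genes was a DEG in the fit of all 6 libraries. Without control repeat 3, 5 of the 11 mesenchymal and basal genes were called, beside 10.5% of all genes. These were VIM, CAV1, CAV2, PLAU and ANXA1, with adjusted p from 0.0051 to 0.0209 in edgeR. In that fit 0 genes of the other marker lists were called.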
